A study of Mus musculus with 24 samples.

Results

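Mouse skeletal cells that did not carry embigin (EMB-) were compared between vertebrae and long bones, gene by gene. The labels give the cells of both sites as GFP-, that is, without the GFP that marks the Zic1-Cre lineage. The comparison held 8 of the 24 RNA-seq libraries of the series, 4 vertebral GFP- EMB- and 4 long bone EMB-. Its members were the 10931 genes, of 21865 kept from the deposited table, whose FPKM (a fragment count corrected for transcript length and for library size) was 1 or more in at least 4 of these 8 libraries.

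All mice were male and on postnatal day 10, and the labels give their genotype as WT although the design names a Zic1-Cre allele. Vertebral cells were taken from the spine, and long bone cells from femur and tibia. Both groups were sorted in the same way, as cells without the blood markers CD45 and TER119, the endothelial marker CD31, Thy1, 6C3 or CD105, and with CD200. Embigin is a surface protein, and cells with it (EMB+) were sorted into separate libraries, used below in the last comparison. The series profiled EMB+ and EMB- cells across both skeletal sites. The titles call the replicates biological but tie none to an animal, and every p given here therefore reflects library-to-library spread, which may be partly technical. In sorted bulk RNA, fewer cells of a type and less RNA of a gene per cell cannot be told apart.

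The vertebral column forms from the sclerotome of the somites, where Pax1 and Pax9 are active beside Nkx3-2, Uncx and Foxf2. The limb skeleton forms from lateral plate mesoderm, in which Pitx1 and Tbx4 set the hindlimb and Shox2 the upper and middle segments. Hox genes of the A, B, C and D clusters give position along the body axis, and the posterior members of the A and D clusters also pattern the limb segments. Growth plate cartilage matures through a hypertrophic stage, and osteoblasts then lay down bone. In this tissue the sorted population is enriched for skeletal stem and progenitor cells.

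Long bone replicate 4 stood apart. Its correlation with the other 3 long bone libraries on the log2(FPKM + 1) scale was 0.919 to 0.940, while those 3 correlated with each other at 0.967 to 0.980 and the vertebral libraries at 0.979 to 0.985. Its FPKM summed to 566107, against 414751 to 452920 in the other 3 long bone libraries and 391420 to 401574 in the vertebral libraries. In long bone libraries 10819 to 11175 genes reached 1 FPKM, and in vertebral libraries 10372 to 10497. Every long bone library was thus above every vertebral library in both measures. The deviation of replicate 4 from the other long bone libraries followed transcript length. Its median was 0.59 (log2) in the quartile of shortest transcripts and -0.46 in that of the longest. The other 7 libraries stayed between -0.33 and 0.19 in every quartile. The site difference of the median gene was -0.44 in the shortest and -0.21 in the longest quartile with this library, and -0.28 and -0.30 without it. The read depth behind FPKM values is unknown, so no counting intervals are given.

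**Figure D1:**
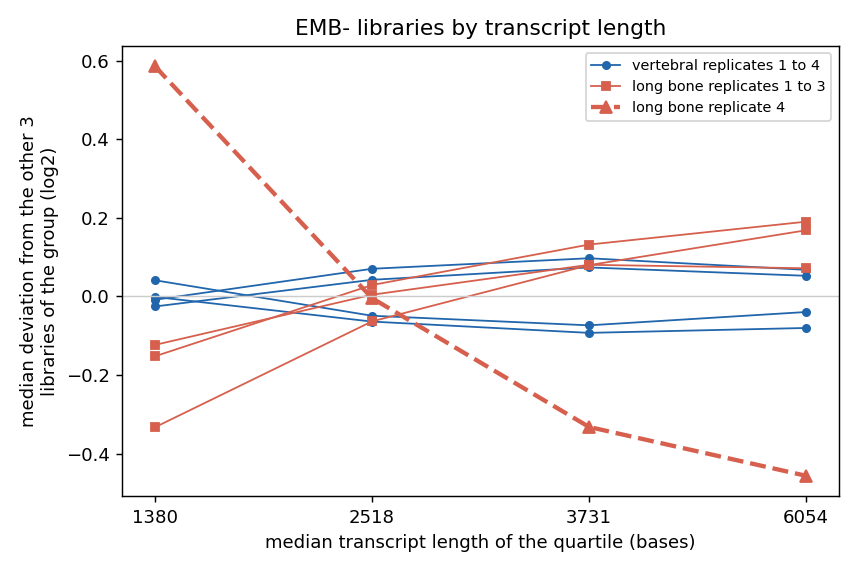
Median deviation of each EMB- library from the mean of the other 3 libraries of its group (log2 of FPKM + 1, y axis) in 4 quartiles of transcript length, placed by rank and labelled with the median length in bases (x axis). Long bone replicate 4 (dashed) runs from 0.59 in the shortest quartile to -0.46 in the longest, and the other 7 libraries lie between -0.33 and 0.19.

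The median tested gene differed by -0.28 on the log2 scale (vertebral minus long bone, the direction of every difference below). Of 10931 genes, limma with Benjamini-Hochberg adjustment called 631 higher in vertebral cells (5.77%) and 2967 lower (27.1%) at an adjusted p under 0.05. Without long bone replicate 4 it called 832 higher (7.61%) and 4202 lower (38.4%). Of the genes called with all 8 libraries, 621 of the 631 higher and 2926 of the 2967 lower were called again. Median-ratio scaling, which moved the median gene to -0.01, gave 1095 higher (10.0%) and 1252 lower (11.5%), and quantile normalization gave 1347 and 1335. A small decrease is therefore to be read against the shift of the median gene, and the counts of the main lists are also given under median-ratio scaling. Every count of called list members below is to be read against these shares of all genes tested. Where groups are said not to overlap, this describes levels only, and the share of all tested genes with separate groups is not given.

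Of the sort genes Cd200 differed between the sites. Emb was at 0.918, 0.855, 1.02 and 1.32 FPKM in vertebral replicates 1 to 4 and at 0.934, 1.06, 1.04 and 0.685 in long bone replicates 1 to 4 (difference 0.07, adjusted p = 0.74). Cd200 was at 99.9, 114, 88.6 and 88.4 FPKM in vertebral and 239, 190.7, 199.6 and 563 in long bone libraries. All long bone libraries were higher, and replicate 4 was far above the others, so the difference was -1.45 ± 0.31 (SE, adjusted p = 0.0049) with it and -1.09 (5.12e-05) without it. Eng (CD105) did not pass the test (-0.051, adjusted p = 0.89), and Ptprc (CD45), Pecam1 (CD31), Thy1, Enpep (6C3) and Zic1 did not pass the filter.

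Transcription factors of the sclerotome were higher in vertebral cells and those of the limb were higher in long bone cells. Of 19 axial factors on the list, 17 were in the table and 10 passed the filter: 6 were called higher and 2 lower in vertebral cells (6 and 3 without long bone replicate 4, 6 and 1 under median-ratio scaling). Of 18 limb factors 11 passed the filter, and 1 was called higher and 9 lower (1 and 8 under median-ratio scaling, which ended the call of Prrx2, adjusted p = 0.099).

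Pax1 (chromosome 2, 147361925 to 147393295, GRCm38) was at 159, 166.95, 129 and 144 FPKM in vertebral replicates 1 to 4 and at 2.32, 3.38, 5.36 and 3.59 in long bone replicates 1 to 4. The groups were far apart, and the difference was 5.05 ± 0.20 on the log2 scale (adjusted p = 5.29e-08). Foxf2 (chromosome 13, 31625816 to 31631403), a forkhead factor, was at 30.98, 39.99, 29.2 and 32.8 FPKM in vertebral and 0.342, 0.140, 0.0233 and 0.0253 in long bone libraries (4.92 ± 0.17, adjusted p = 2.94e-08). It was thus near 0 in every long bone library. Nkx3-2, which acts downstream of Pax1 in vertebral cartilage, was at 25.6, 28.8, 20.1 and 23.8 FPKM against 6.04, 5.998, 7.46 and 7.70 (1.71 ± 0.16, adjusted p = 2.27e-05). Pax9 averaged 5.38 ± 1.08 FPKM (SD, n = 4) in vertebral and 0.499 ± 0.129 in long bone cells. Uncx, a homeobox gene of the caudal sclerotome, was at 1.04 to 1.52 FPKM in vertebral cells and listed at 0 in all 4 long bone libraries. Foxd1 was the other axial factor called higher (1.92, adjusted p = 0.0031). Tbx18, a factor of the rostral somite, was lower in vertebral cells (-1.28, adjusted p = 0.000683), as was Meox2 (-0.89, 0.018), whose call ended without vertebral replicate 1, after quantile normalization (0.11) and after median-ratio scaling (0.087).

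Pitx1 (chromosome 13, 55825051 to 55836192) was at 40.7, 27.7, 34.5 and 71.8 FPKM in long bone replicates 1 to 4 and at 0.0705, 0, 0.0364 and 0 in vertebral replicates 1 to 4. Shox2 (chromosome 3, 66971727 to 66981771) was at 38.4, 30.6, 38.2 and 57.5 FPKM in long bone and 0, 0.0749, 0 and 0.175 in vertebral libraries. Both were at or near 0 in every vertebral library, with differences of -5.35 ± 0.25 and -5.28 ± 0.20 (adjusted p = 1.91e-07 and 4.64e-08). Tbx4 was at 9.88, 7.38, 12.9 and 7.75 FPKM in long bone and 0.144, 0.303, 0.132 and 0.115 in vertebral cells (-3.13 ± 0.19, adjusted p = 1.16e-06). Tbx15, which shapes limb and scapular bones, was at 15.7, 17.6, 20.3 and 8.73 against 1.15, 0.423, 0.879 and 1.35 (-3.06 ± 0.26, adjusted p = 1.05e-05). Long bone replicate 4 was the lowest of its group for Tbx15 and the highest for Pitx1 and Shox2, and none of these groups overlapped. Tbx2, Tbx3, Irx5 and Prrx1 were also called lower in vertebral cells, with differences of -2.22, -1.31, -2.38 and -2.07. Irx3 alone of this list was called higher (0.60, adjusted p = 0.042), with overlapping groups, and lost its call when any single library other than vertebral replicate 2 and long bone replicate 4 was left out. Msx1 did not pass the test (-0.51, adjusted p = 0.14).

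Among the Hox genes, anterior and thoracic members were higher in vertebral cells and posterior HoxA members were higher in long bone cells. Of 39 listed genes 18 passed the filter, with 11 called higher and 3 lower, and 12 higher and 3 lower without long bone replicate 4 or under median-ratio scaling. Within the HoxA cluster, Hoxa3, Hoxa5 and Hoxa7 were higher in vertebral cells (1.96, 0.83 and 0.92) and Hoxa9, Hoxa10 and Hoxa11 were lower (-1.27, -1.70 and -2.01). Hoxa10 was at 11.7, 13.6, 14.8 and 12.4 FPKM in vertebral and 44.8, 34.9, 49.8 and 51.8 in long bone libraries. Hoxa11 was at 2.096, 4.08, 4.25 and 2.13 FPKM in vertebral and 12.01, 11.3, 18.95 and 20.1 in long bone libraries. Neither pair of groups overlapped, and both genes stayed detectable in vertebral cells, in contrast to Pitx1 and Shox2. The calls of Hoxa5 (adjusted p = 0.029) and Hoxa7 (0.015) ended when single libraries were left out: vertebral replicate 2 or 4 or long bone replicate 1 or 2 for Hoxa5, and vertebral replicate 1 or 4 for Hoxa7.

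All 4 HoxB genes that passed the filter, Hoxb2, Hoxb6, Hoxb7 and Hoxb9, were higher in vertebral cells under every scaling tried. Hoxb7 (chromosome 11, 96286623 to 96290162) was at 19.1, 11.8, 12.01 and 14.8 FPKM in vertebral and 0.236, 0, 0 and 0.0468 in long bone libraries (3.83 ± 0.18, adjusted p = 1.92e-07). Hoxb6 was at 10.4, 6.14, 4.68 and 6.67 FPKM in vertebral cells, and 3 of the 4 long bone libraries listed it at 0. Of 6 HoxC genes Hoxc4, Hoxc5, Hoxc6 and Hoxc8 were higher, and Hoxc9 and Hoxc10 did not pass the test (-0.12, adjusted p = 0.7, and -0.49, 0.13). Hoxc8 was at 23.04, 24.5, 22.6 and 20.4 FPKM against 2.187, 1.40, 1.26 and 2.78 (3.05 ± 0.19, adjusted p = 1.28e-06), the largest change of that cluster. The 2 HoxD genes measured, Hoxd8 and Hoxd9, did not pass the test with 8 libraries (0.34 and 0.58). Hoxd9 was called higher without long bone replicate 4 (0.87, adjusted p = 0.0017) and under median-ratio scaling (0.036).

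Of the TALE homeobox proteins, which bind DNA together with Hox proteins, 8 genes passed the filter. Meis1, Meis2 and Pknox2 were higher in vertebral cells (0.66, 0.78 and 0.78) and none was lower, while without long bone replicate 4 Pknox1 was called lower (-0.60, adjusted p = 0.0047). Meis2 lost its call without vertebral replicate 4 or long bone replicate 2. The Pbx genes measured did not pass the test (-0.27 to -0.23).

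With predicted genes and genes of the red cell and heme lists left out, the largest increases with separate groups and at least 5 FPKM in the higher group were, in order, Pax1, Foxf2, Padi2, Serpina1e, Chst5, Cytl1, Serpina1b, Nmur1, Sbsn and Krt19. Padi2, an enzyme that turns arginine in proteins into citrulline, was at 49.9, 82.7, 63.1 and 59.3 FPKM in vertebral and 0.953, 1.76, 1.14 and 1.33 in long bone libraries (4.81 ± 0.18, adjusted p = 5.29e-08). Chst5, a carbohydrate sulfotransferase, was at 106, 102, 100.4 and 109 against 3.53, 3.39, 4.53 and 7.28 (4.26 ± 0.20, adjusted p = 1.91e-07). Sbsn, suprabasin, was at 55.3, 70.6, 70.6 and 75.7 against 2.78, 2.60, 1.89 and 8.08, with long bone replicate 4 the highest of its group (3.98 ± 0.304, and 4.33 without it). None of these groups overlapped, which the naming rule required. Serpina1e and Serpina1b belong to a family of near-identical alpha-1 antitrypsin genes among which reads may be split, and both were listed at 0 in 3 of 4 long bone libraries. Serpina1e was at 26.1, 33.7, 20.2 and 20.7 FPKM in vertebral cells. A gene without an assigned function, 1520401A03Rik (chromosome 17, 23704488 to 23722783), fell outside the naming rule and is named after its values were seen. It was at 530.0, 712, 874 and 800.0 FPKM in vertebral and 0.360, 0.395, 0.123 and 0.0564 in long bone libraries, a difference of 9.20 ± 0.18 (adjusted p = 2.42e-10).

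The largest decreases by the same rule were Matn1, Pitx1, Shox2, Myog, Htra4, Fgl2, Cxcl12, Tnni2, Sfrp2 and Cyp1b1. Htra4, a secreted serine protease, averaged 4.42 ± 1.54 FPKM (SD, n = 4) in vertebral and 99.1 ± 45.7 in long bone cells. Fgl2, a fibrinogen-like protein, averaged 1.41 ± 0.673 and 51.9 ± 47.7 FPKM, and the SD in long bone was nearly as large as the mean. Cyp1b1, a cytochrome P450 enzyme, averaged 0.302 ± 0.193 and 20.6 ± 14.2 FPKM.

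Both groups held abundant cartilage RNA, and single cartilage genes differed widely and in both directions. All 25 listed genes passed the filter: 8 were called higher in vertebral cells, 5 lower and 12 neither, with a list median of 0.19 beside -0.28 over all tested genes. Of all genes tested 5.77% were called higher and 27.1% lower, and nothing is read from the count of lower cartilage genes. Without long bone replicate 4 the counts were 9 and 8, and under median-ratio scaling 10 and 3. The summed FPKM of the list was 73160 to 77050 in vertebral libraries and 38260 to 53180 in long bone libraries, and Col2a1 made up most of it. Col2a1, the main collagen of cartilage, named for its level after its values were seen, averaged 51960.0 ± 2329 and 29190.0 ± 3550.0 FPKM (0.84, adjusted p = 0.0069), a call that ended under quantile normalization (0.59). That scaling sets genes of equal rank to equal values and can by itself remove the difference of a highly ranked gene.

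Matn1 (chromosome 4, 130944385 to 130955475), a matrilin of the cartilage matrix, was at 6.17, 7.67, 4.07 and 3.01 FPKM in vertebral and 441, 327, 391 and 460.3 in long bone libraries. The groups differed by -6.08 ± 0.24 (adjusted p = 5.29e-08), the largest decrease in EMB- cells of any gene named here. Matn4 was lower as well, at 17.001, 14.98, 17.1 and 20.9 against 120.3, 139, 184 and 250.1 (-3.19 ± 0.22, adjusted p = 3e-06). In the other direction, Cytl1 (chromosome 5, 37735519 to 37739820), a secreted cytokine-like protein of chondrocytes, was at 2678, 2675, 2789 and 2537 FPKM in vertebral and 118, 78.8, 132 and 318 in long bone libraries. Long bone replicate 4 was the highest of its group, and the difference was 4.24 ± 0.35 with it (adjusted p = 9.23e-06) and 4.63 without it. Epyc, a small proteoglycan, was at 142, 126, 119.3 and 116 against 33.02, 24.5, 35.4 and 19.6 (2.16 ± 0.20, adjusted p = 2.06e-05). Chondromodulin, listed in the file as Lect1 (Cnmd), which inhibits vessel growth in cartilage, was at 3326, 3476, 3106 and 3154 against 1239, 945, 1390.4 and 1448 (1.40 ± 0.19, adjusted p = 0.000394). Col9a1 and Col9a2, collagens that bind to the cartilage fibril, did not pass the test (0.23 and -0.06).

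Genes of hypertrophic cartilage were mostly lower in vertebral cells: 7 of 10 were called lower and 1, the pyrophosphatase gene Ppa1, higher (6 and 1 under median-ratio scaling), with a list median of -0.97. Spp1, osteopontin, was at 455, 479, 413 and 294 FPKM in vertebral and 3864, 2817, 2142 and 2379 in long bone libraries (-2.76 ± 0.24, adjusted p = 1.4e-05). Mmp13, a collagenase of the hypertrophic zone, was at 13.1, 7.53, 13.6 and 5.001 against 146, 123, 90.6 and 56.2 (-3.29 ± 0.34, adjusted p = 4.82e-05). Neither pair overlapped. Col10a1, Mef2c and Runx3 were called lower, at -2.86, -1.60 and -1.005. Ihh, the hedgehog ligand of prehypertrophic cells, was at 5.72, 3.55, 6.67 and 3.27 against 2.48, 3.28, 5.81 and 4.07, with overlapping groups, and did not pass the test (0.24, adjusted p = 0.5).

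Every bone-forming gene that passed the filter was lower in vertebral cells. The 18 tested of 20 listed genes were all called lower, with a list median of -1.88, and 17 were called under median-ratio scaling (median -1.60), the exception being Smpd3 (adjusted p = 0.13). The background was 27.1% of all genes called lower with all 8 libraries. The list summed to 8328 to 9197 FPKM in vertebral libraries, 22120 to 31990 in long bone replicates 1 to 3 and 18340 in replicate 4. Runx2, the factor that starts the osteoblast lineage, was at 4.16, 3.18, 3.85 and 2.57 FPKM in vertebral and 17.7, 13.7, 14.8 and 11.1 in long bone libraries (-1.79 ± 0.18, adjusted p = 4.58e-05). Dlx5 and Dlx3, homeobox factors of osteoblasts, were lower, at -2.16 and -2.53. Col1a1, the main bone collagen, also named for its level, was at 3794, 3565, 3385 and 3282 against 13187, 12227, 10093 and 7446 (-1.58 ± 0.22, adjusted p = 0.00038). Of late products, Dmp1 (chromosome 5, 104202613 to 104214102), a matrix protein of osteocytes, was at 25.3, 13.5, 23.97 and 16.4 against 427, 386, 219 and 150.2 (-3.75 ± 0.33, adjusted p = 1.53e-05). Mepe was at 6.59, 7.4996, 6.94 and 6.31 against 126, 69.4, 62.6 and 62.1 (-3.31 ± 0.22, adjusted p = 2.06e-06). Every long bone library lay above every vertebral library for all of these genes. Sost was below the filter and Fgf23 was listed at 0 in all 8 libraries.

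Runx proteins bind the letters TGTGGT. Promoters of osteoblast genes are shown because the list moved as a whole: for each, the 300 bases from 250 before to 50 after a RefSeq start (build GRCm38.p6), 5′ to 3′ on the gene's strand, with these letters or their reverse complement in capitals. They are the 3 members with the smallest adjusted p that hold the letters: Mepe at chr5:104325079-104325378 (plus strand), Dmp1 at chr5:104202367-104202666 (plus) and Runx2 at chr17:44814578-44814877 (minus).
Mepe: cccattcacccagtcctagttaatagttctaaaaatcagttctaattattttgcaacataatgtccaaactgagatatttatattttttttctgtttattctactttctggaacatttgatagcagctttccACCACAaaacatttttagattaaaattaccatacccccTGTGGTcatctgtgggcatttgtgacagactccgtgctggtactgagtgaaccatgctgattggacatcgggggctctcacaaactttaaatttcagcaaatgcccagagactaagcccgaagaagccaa
Dmp1: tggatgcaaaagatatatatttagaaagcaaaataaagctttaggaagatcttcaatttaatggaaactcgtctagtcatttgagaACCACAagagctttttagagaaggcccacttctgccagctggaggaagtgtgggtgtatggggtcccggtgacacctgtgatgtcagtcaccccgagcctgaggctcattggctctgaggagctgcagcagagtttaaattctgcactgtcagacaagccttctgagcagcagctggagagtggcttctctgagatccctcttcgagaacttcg
Runx2: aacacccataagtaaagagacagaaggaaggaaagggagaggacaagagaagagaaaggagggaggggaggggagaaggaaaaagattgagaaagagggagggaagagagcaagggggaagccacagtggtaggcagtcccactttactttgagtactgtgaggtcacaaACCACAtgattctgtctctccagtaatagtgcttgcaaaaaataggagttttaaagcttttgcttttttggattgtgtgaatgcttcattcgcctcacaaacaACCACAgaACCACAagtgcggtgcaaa
Mepe held 2 matches, Dmp1 1 and Runx2 3. Of the 18 tested members 10 were in the promoter table, and 4 of them held the letters in a listed promoter, against 16.8% of all 32851 promoters and 18.9% of all 27025 genes in the table. A match of letters is a description and no shown binding site.

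Marrow stroma and niche genes were lower in vertebral cells in 9 of 15 tested members and higher in 1 (11 and 1 without long bone replicate 4, 7 and 1 under median-ratio scaling), with a median of -1.08. Cxcl12 (chromosome 6, 117168535 to 117181367), the chemokine that holds blood stem cells in marrow, was at 16.5, 6.22, 7.74 and 9.35 FPKM in vertebral and 174.8, 169.9, 132 and 137 in long bone libraries (-3.89 ± 0.25, adjusted p = 1.64e-06). Vcam1, an adhesion molecule of marrow stroma, was at 1.34, 1.11, 0.822 and 1.18 against 28.1, 23.3, 14.5 and 20.9 (-3.40 ± 0.20, adjusted p = 1.16e-06). Both pairs of groups were far apart. Kitl, Ebf1 and Ctsk were called lower (-1.69, -2.21 and -2.09). Lepr and Pdgfrb, receptors used to mark adult stroma, did not pass the test (-0.17 and -0.38), and Pdgfrb was called lower without long bone replicate 4 (adjusted p = 0.0069).

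Elastic fibre genes were split. Eln (chromosome 5, 134702593 to 134747323), elastin, was at 281, 342, 303 and 287 FPKM in vertebral and 39.3, 63.2, 38.6 and 44.6 in long bone libraries (2.71 ± 0.19, adjusted p = 2.68e-06). Of the other 13 members, which include the microfibril proteins on which elastin is laid, 8 were called lower and none higher. Mfap5, Fbln5 and Fbn2 fell by 1.73, 1.56 and 1.28 on the log2 scale. Under median-ratio scaling the list had 4 members higher and 8 lower. Lox, which cross-links elastin and collagen, was at 64.8, 58.3, 46.5 and 42.5 against 164.1, 157, 125 and 33.02. Long bone replicate 4 was the lowest of all 8 libraries for Lox, and the difference passed the test without it (-1.48, adjusted p = 2.02e-05) but not with it (-0.95, 0.11).

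Tendon and ligament genes went both ways, 3 higher and 5 lower of 12 (4 and 4 under median-ratio scaling). Fmod, fibromodulin, was at 3665, 3562, 3162 and 3156 FPKM in vertebral and 1993, 1591, 2348 and 1524 in long bone libraries (0.88 ± 0.20, adjusted p = 0.0068). Thbs4, a matrix protein of tendon, was at 28.8, 20.4, 25.7 and 23.4 against 136, 109, 129.6 and 114 (-2.27 ± 0.16, adjusted p = 2.72e-06). Neither pair overlapped. Kera and Tnmd were also lower (-1.94 and -1.34). Of 13 fibroblast and periosteum genes 3 were higher and 8 lower (3 and 6 under median-ratio scaling). Ogn, osteoglycin, was at 319, 303, 258 and 267 FPKM in vertebral and 79.1, 77.7, 94.3 and 44.6 in long bone libraries (1.99 ± 0.23, adjusted p = 0.000105), whereas Dpt, Cd34, Ly6a and Pdgfra were lower (-2.42, -1.49, -1.45 and -1.95). Dcn did not pass the test (0.11, adjusted p = 0.67).

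Of 10 IGF genes 7 were called lower and none higher, also under median-ratio scaling, with a median of -1.74. Igf1, the growth factor itself, was at 4.44, 5.48, 5.18 and 4.63 FPKM in vertebral and 28.4, 33.5, 38.8 and 28.5 in long bone libraries (-2.48 ± 0.154, adjusted p = 1.31e-06). Igfbp5, the binding protein of bone, was at 12.4, 7.89, 5.97 and 7.61 against 53.6, 109, 91.4 and 57.3 (-3.04 ± 0.26, adjusted p = 1.4e-05). Igf2 was lower as well (-1.82), and the receptors Igf1r and Igf2r did not pass the test (-0.052 and -0.44), the second of which was called lower without long bone replicate 4 (adjusted p = 0.0051).

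Of 14 Wnt ligands and antagonists 12 were lower and 2 higher (8 and 2 under median-ratio scaling). The summed FPKM of the 22 listed genes overlapped between the sites, at 1289 to 1440 in vertebral and 1065 to 1571 in long bone libraries. The secreted antagonists Sfrp1, Sfrp2, Sfrp4 and Sfrp5 were all lower (-1.66, -3.86, -3.27 and -1.46). Sfrp2 was at 3.19, 2.45, 3.45 and 1.21 FPKM in vertebral and 46.5, 37.3, 57.4 and 59.1 in long bone libraries. Notum, a secreted enzyme that inactivates Wnt, went the other way, at 89.9, 105.4, 115 and 115 against 24.04, 25.6, 38.7 and 36.5 (1.76 ± 0.19, adjusted p = 6.78e-05). The groups of both genes were separate.

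Of 25 BMP genes 8 were higher and 6 lower (9 and 6 under median-ratio scaling), beside 5.77% higher and 27.1% lower of all genes tested. The count of lower genes was near that share, and nothing is read from it. Among the ligands, Bmp6 was at 72.3, 77.7, 73.3 and 77.5 FPKM in vertebral and 26.7, 23.2, 31.3 and 22.6 in long bone libraries (1.51 ± 0.149, adjusted p = 3.32e-05). Bmp4 was at 0.916, 1.59, 1.33 and 0.810 against 13.2, 15.2, 12.7 and 19.4 (-2.90 ± 0.19, adjusted p = 1.64e-06). The 2 ligands therefore moved in opposite directions, and Bmp7 fell like Bmp4 (-2.81) while Bmp2 did not pass the test (-0.45, adjusted p = 0.057; 0.01 without long bone replicate 4). Of the antagonists, Chrdl2 was at 39.2, 32.7, 36.6 and 34.7 against 4.72, 5.59, 6.14 and 5.11 (2.53 ± 0.14, adjusted p = 7.14e-07) and Fst was lower (-1.57). The response genes Id1 and Id3 did not pass the test (-0.01 and -0.43).

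Of 13 Hedgehog genes 3 were higher and 1 lower (3 and 3 without long bone replicate 4, 3 and 0 under median-ratio scaling), beside 5.77% higher and 27.1% lower of all genes tested. Gas1, a co-receptor, was at 1033, 1209, 1015 and 1016 FPKM in vertebral and 428, 459.6, 567 and 560.2 in long bone libraries (1.09 ± 0.18, adjusted p = 0.0011). Smo, the signal transducer, was at 89.2, 96.6, 78.4 and 78.7 against 43.8, 47.8, 57.8 and 31.2 (0.94 ± 0.19, adjusted p = 0.0043). Hhip, a decoy receptor and target, was higher as well (0.87), whereas Ptch1, a receptor and target, was at 8.43, 7.48, 7.62 and 7.14 against 13.99, 13.1, 20.9 and 7.90. The groups of Ptch1 overlapped, and its call (-0.72, adjusted p = 0.038) ended without any library other than long bone replicate 4 and under median-ratio scaling (0.26). In the TGF-beta list 1 of 10 genes was higher, Inhba (1.45), and Tgfb1, Tgfb2 and Ltbp2 were lower (-0.92, -1.62 and -0.94). In the FGF list 1 of 9 was higher, Fgfr2 (0.83, whose call ended without vertebral replicate 1, 2 or 4), and Fgf18, Fgfr1 and Fgfr4 were lower (-1.13, -0.92 and -1.43). Fgfr3, the receptor of growth plate chondrocytes, did not pass the test (-0.02). The share of lower genes in both lists was near the 27.1% of all genes tested, and nothing is read from it.

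**Figure D2:**
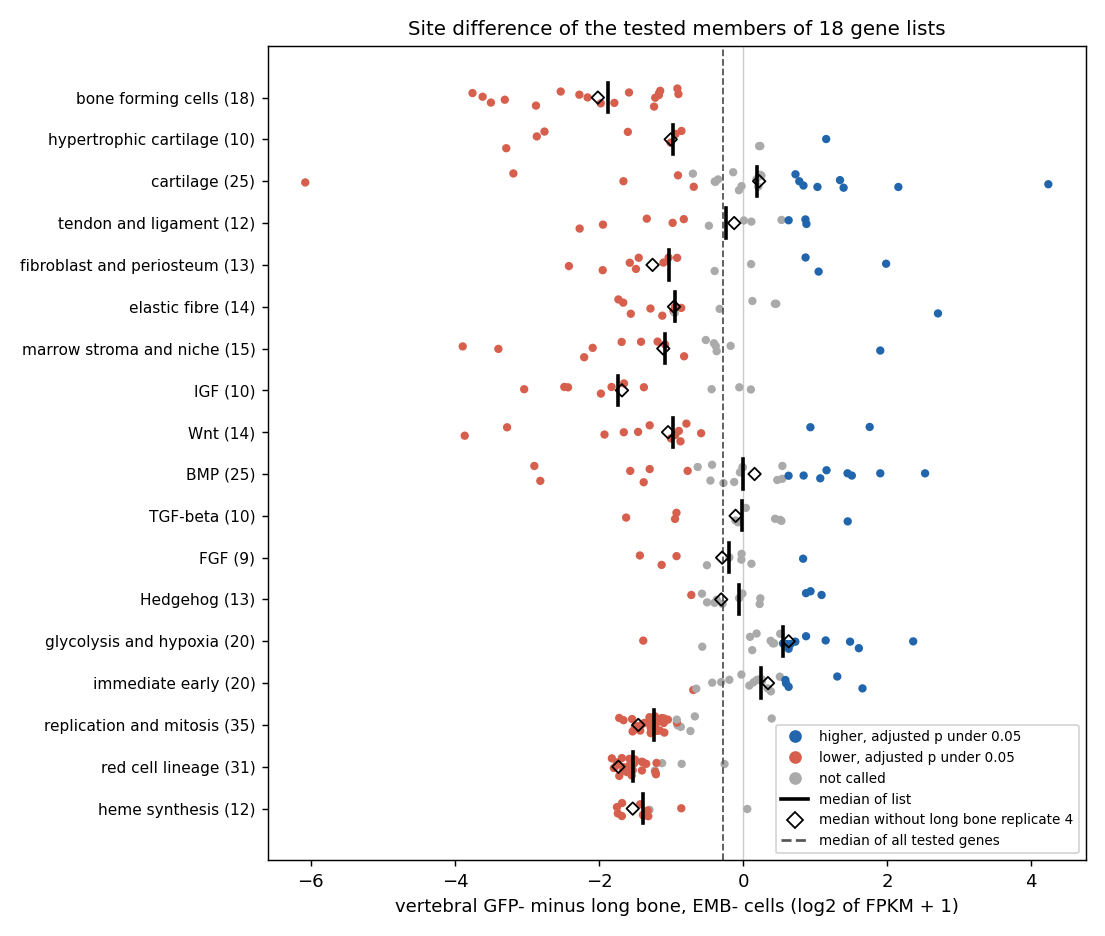
Site difference (vertebral GFP- minus long bone, log2 of FPKM + 1, x axis) of every tested member of 18 gene lists, with the number tested in brackets, bars at the list median with 8 libraries and diamonds at the median without long bone replicate 4. The dashed line marks the median of all tested genes, -0.28. All bone-forming genes lie left of it, and glycolysis genes lie mostly to the right.

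Glycolysis and hypoxia genes were higher in vertebral cells in 11 of 20 members and lower in 1, Adm (15 and 2 without long bone replicate 4, 15 and 1 under median-ratio scaling), with a median of 0.56. Car9, a carbonic anhydrase induced by low oxygen, was at 31.4, 38.3, 34.4 and 41.1 FPKM in vertebral and 6.91, 3.58, 6.30 and 9.28 in long bone libraries (2.36 ± 0.23, adjusted p = 3e-05). Pfkp, a phosphofructokinase, was at 106, 103, 86.2 and 96.4 against 34.8, 24.6, 34.4 and 32.9 (1.61 ± 0.16, adjusted p = 3.74e-05). Bnip3, a mitophagy receptor, was at 304, 273, 221 and 247 against 104, 63.4, 97.3 and 112 (1.49 ± 0.21, adjusted p = 0.000423). The groups of all 3 were separate. Slc2a1, the glucose transporter, was higher by 0.88. Gapdh did not pass the test (0.13). Eno1 and Aldoa (0.41 and 0.38) did not pass with 8 libraries but did without long bone replicate 4 and under median-ratio scaling.

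Immediate early genes, which rise within minutes of a stimulus or of tissue dissociation, had 5 of 20 members higher and 1 lower (10 and 2 without long bone replicate 4, 9 and 0 under median-ratio scaling). Dusp1, a phosphatase, was at 839, 899.7, 777 and 743 FPKM in vertebral and 257, 235, 292 and 247 in long bone libraries (1.66 ± 0.17, adjusted p = 3.64e-05). Atf3 was higher by 1.31. Fos was at 2929, 3174, 2967 and 2987 against 1899, 1758, 2365 and 2526 and did not pass the test with 8 libraries (0.51, adjusted p = 0.058), though every vertebral library was above every long bone library, and it passed without long bone replicate 4 (0.004).

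RNA of the red cell lineage was present in both groups, although the sort removed cells with TER119, and it was higher in long bone. Hemoglobin genes held 1.79%, 2.44%, 2.96% and 2.21% of the summed FPKM in vertebral replicates 1 to 4 and 6.93%, 8.90%, 4.64% and 7.14% in long bone replicates 1 to 4. Every long bone library was above every vertebral library (mean 2.35% ± 0.487 against 6.90% ± 1.75, SD, n = 4, p = 0.029 by a two-sided exact permutation test, the smallest p that 4 against 4 libraries can give). In EMB+ cells the share was 0.026% to 0.12% at both sites. Of 31 tested genes of the lineage 27 were lower in vertebral cells and none higher (30 and 0 without long bone replicate 4, 22 and 0 under median-ratio scaling). Hbb-bs, a beta globin, was at 3109.9, 4402, 5578 and 3992 FPKM in vertebral and 14488, 19178, 9354 and 16907 in long bone libraries. Its difference was -1.79 ± 0.27 (adjusted p = 0.000717), the alpha globin Hba-a1 gave -1.75, and near-identical globin copies may share reads. Alas2, the first enzyme of heme synthesis in red cells, was at 73.0, 127, 135 and 109 against 362, 607, 262 and 257 (-1.68 ± 0.29, adjusted p = 0.0017). Of 12 heme synthesis genes 10 were lower and none higher, and Alas1, the form used in other cells, did not pass the test (0.06, adjusted p = 0.81). Epb42, Sptb and Fech, at -1.12, -1.22 and -1.299, passed without long bone replicate 4 but not with it.

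GATA1 is the main factor of red cell genes and binds the letters AGATAA. The promoters below have the same layout, with these letters or their reverse complement in capitals, and belong to the 3 members of the lineage with the smallest adjusted p that hold these letters: Hbb-bs at chr7:103827879-103828178 (minus strand), Kel, a blood group antigen, at chr6:41704276-41704575 (minus), and Alas2 at chrX:150547167-150547466 (plus).
Hbb-bs: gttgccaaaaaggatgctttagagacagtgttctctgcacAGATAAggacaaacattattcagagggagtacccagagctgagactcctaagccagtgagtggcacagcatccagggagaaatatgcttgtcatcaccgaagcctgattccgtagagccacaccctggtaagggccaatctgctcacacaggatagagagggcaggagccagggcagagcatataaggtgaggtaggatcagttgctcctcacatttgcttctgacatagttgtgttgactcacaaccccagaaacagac
Kel: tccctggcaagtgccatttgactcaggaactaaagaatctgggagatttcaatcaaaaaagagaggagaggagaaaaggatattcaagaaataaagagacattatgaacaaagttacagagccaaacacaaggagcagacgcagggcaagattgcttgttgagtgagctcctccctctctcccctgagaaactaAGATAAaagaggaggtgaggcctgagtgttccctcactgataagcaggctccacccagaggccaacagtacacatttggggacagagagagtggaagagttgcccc
Alas2: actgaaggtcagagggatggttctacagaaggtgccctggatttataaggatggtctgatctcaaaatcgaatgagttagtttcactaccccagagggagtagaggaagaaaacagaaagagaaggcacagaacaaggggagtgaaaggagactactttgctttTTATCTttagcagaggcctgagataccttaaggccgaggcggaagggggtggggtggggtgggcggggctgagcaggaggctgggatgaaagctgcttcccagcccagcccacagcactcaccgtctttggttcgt
Each held 1 match. Of the 31 tested members 23 were in the promoter table and 8 held the letters in a listed promoter, against 11.2% of all promoters and 12.7% of all genes in the table.

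Replication and mitosis genes were also lower in vertebral cells. Of 35 tested genes 29 were called lower and none higher (34 and 0 without long bone replicate 4, 18 and 0 under median-ratio scaling), with a median of -1.23. Their FPKM summed to 583, 784, 792 and 613 in vertebral replicates 1 to 4 and to 1822, 2898, 1275 and 1220.0 in long bone replicates 1 to 4. All long bone libraries were above all vertebral libraries. Long bone replicate 2 had the highest sum here and also the highest hemoglobin share. Long bone replicate 4 had the lowest sum of its group at a hemoglobin share of 7.14%, above the shares of replicates 1 and 3. The part that red cell precursors have in the site difference of these genes was not tested. Ube2c, an enzyme of mitotic exit, was at 42.4, 73.0, 77.2 and 58.9 FPKM in vertebral and 201, 332, 135 and 193 in long bone libraries (-1.72 ± 0.28, adjusted p = 0.0011). Cenpa, the histone of the centromere, was at 18.8, 28.5, 24.6 and 24.6 against 70.8, 100.3, 43.7 and 83.2 (-1.54 ± 0.24, adjusted p = 0.000884). Birc5, survivin, was at 39.8, 58.1, 66.2 and 53.3 against 164.5, 263, 107 and 184 (-1.66 ± 0.26, adjusted p = 0.000944). Of the replication helicase, Mcm6 was at 67.8, 79.1, 72.3 and 65.5 against 62.8, 96.2, 46.4 and 29.3, with overlapping groups, and did not pass the test (0.40, adjusted p = 0.32). Rrm1 and Mcm4, at -0.86 and -0.91, passed without long bone replicate 4 (adjusted p = 0.0038 and 0.000651).

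Many promoters of mitotic genes hold CCAAT boxes, bound by NF-Y, and the cell cycle homology region TTTGAA, bound by the DREAM and MuvB complexes. The 3 members with the smallest adjusted p that hold both are shown in the same layout, with both kinds of match, on either strand, in capitals: Cenpa at chr5:30666636-30666935 (plus strand), Ube2c at chr2:164769679-164769978 (plus), and Mki67, the gene of the proliferation marker Ki-67, at chr7:135716330-135716629 (minus).
Cenpa: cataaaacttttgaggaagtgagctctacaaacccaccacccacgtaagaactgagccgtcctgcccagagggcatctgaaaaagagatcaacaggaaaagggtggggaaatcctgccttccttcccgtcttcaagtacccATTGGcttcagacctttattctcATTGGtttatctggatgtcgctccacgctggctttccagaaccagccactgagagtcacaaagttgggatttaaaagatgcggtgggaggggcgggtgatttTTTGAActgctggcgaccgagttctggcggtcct
Ube2c: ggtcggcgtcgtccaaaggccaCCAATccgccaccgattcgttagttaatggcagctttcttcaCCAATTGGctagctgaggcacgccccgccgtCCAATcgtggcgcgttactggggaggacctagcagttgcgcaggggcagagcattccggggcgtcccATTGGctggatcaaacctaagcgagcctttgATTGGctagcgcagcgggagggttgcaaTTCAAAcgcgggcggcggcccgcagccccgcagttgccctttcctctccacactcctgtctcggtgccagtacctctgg
Mki67: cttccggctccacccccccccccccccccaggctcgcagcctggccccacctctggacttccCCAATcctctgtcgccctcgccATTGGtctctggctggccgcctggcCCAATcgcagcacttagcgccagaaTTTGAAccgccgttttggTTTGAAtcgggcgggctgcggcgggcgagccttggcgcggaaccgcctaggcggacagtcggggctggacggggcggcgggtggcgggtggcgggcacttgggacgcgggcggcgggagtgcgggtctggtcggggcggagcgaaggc
CCAAT or its reverse complement matched at 2 places in Cenpa, 6 in Ube2c and 3 in Mki67, and matches that overlap on opposite strands of Ube2c were each counted. The homology region or its reverse complement matched at 1, 1 and 2 places. Of the 35 tested members 29 were in the promoter table. The CCAAT letters were in a listed promoter of 23 of them, against 37.4% of all promoters and 41.1% of all genes, and the TTTGAA letters in 13, against 17.9% and 20.2%. Mki67 itself was at 3.08, 3.77, 5.46 and 3.47 FPKM in vertebral and 11.5, 24.4, 12.8 and 8.07 in long bone libraries (-1.53, adjusted p = 0.0023).

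**Figure D3:**
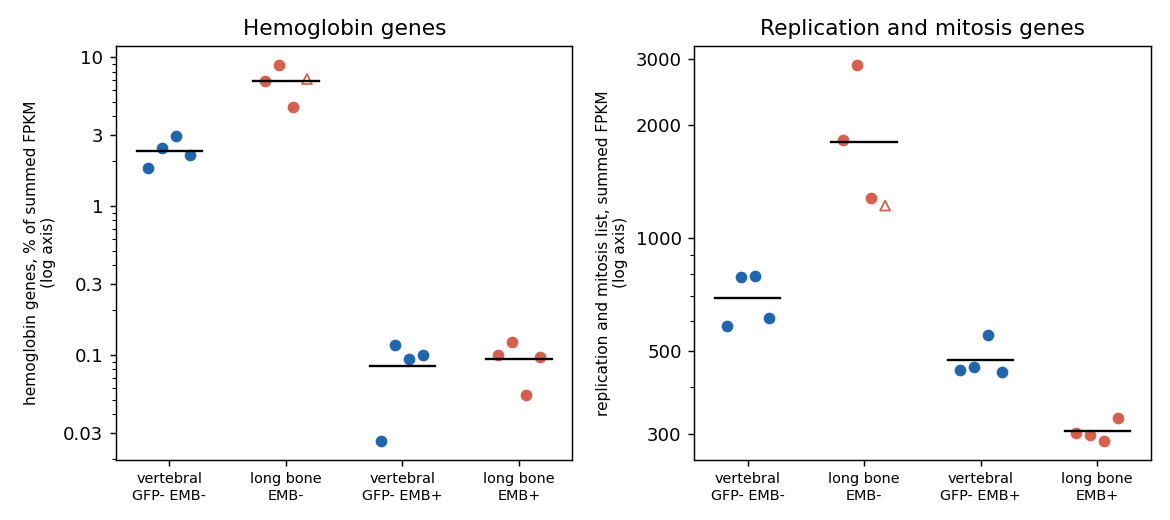
Share of summed FPKM held by hemoglobin genes (left, log axis) and summed FPKM of the replication and mitosis list (right, log axis) in each of 4 libraries per group, with bars at the group means and long bone EMB- replicate 4 as an open triangle. Long bone EMB- libraries are highest in both panels, at 4.64% to 8.90% and at 1220.0 to 2898 FPKM.

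Markers of other cell types were measured as well, in cells that the sort had selected as without CD45, TER119 and CD31. The 12 endothelial genes summed to 3.86 to 5.91 FPKM in vertebral and 8.93 to 15.2 in long bone libraries, and 3 of them passed the filter, 2 of which were called lower. The 14 macrophage and osteoclast genes summed to 20.1 to 44.8 and 40.5 to 93.9 FPKM, with 3 of 4 tested genes lower. Defining endothelial markers such as Cdh5 and macrophage markers such as Adgre1 averaged under 0.1 FPKM at both sites. Of 13 neutrophil genes 10 passed the filter and did not pass the test, with sums of 170.4 to 693 and 226 to 872 FPKM. Of 13 lymphoid and MHC genes 8 passed the filter, with 1 called higher and 1 lower. The 9 megakaryocyte genes summed to 4.54 to 45.3 and 7.92 to 124 FPKM, and of 4 tested Gp9 was called lower, a call that ended without long bone replicate 4 (adjusted p = 0.053). Of 5 tested glial and neuronal genes 1, S100b, was called higher without long bone replicate 4 but not with it. Of 5 adipocyte genes 3 were lower, among them Adipoq, adiponectin, at 1.95, 0.0821, 0.602 and 0.978 FPKM in vertebral and 17.1, 15.3, 8.21 and 27.3 in long bone libraries (-3.22 ± 0.36, adjusted p = 8.58e-05). The part of these cells in the site difference was not tested.

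Skeletal muscle genes stood out among these markers in long bone. The 15 listed genes in the table summed to 34.7 to 45.9 FPKM in vertebral libraries and 378 to 855 in long bone libraries, mostly from Tnni2. Tnni2, a troponin of fast muscle, was at 38.5, 28.4, 29.6 and 30.2 FPKM in vertebral and 497, 322, 416 and 799 in long bone libraries (-3.89 ± 0.26, adjusted p = 1.99e-06). Myog, the factor of muscle cell fusion, was at 20.1, 28.4, 7.28 and 23.1 FPKM in long bone libraries and listed at 0 in 3 of 4 vertebral libraries, with -4.20 as the fitted difference. Of 5 tested muscle genes 4 were called lower and none higher, also under median-ratio scaling, and Tnnt3 did not pass the test. Des and Mylpf were lower too (-1.83 and -1.13). The other 10 in the table were below the filter, among them Ckm, Neb and Myh3 of mature or forming fibres. These averaged 0.240, 0.1502 and 0.0488 FPKM in long bone and were listed at 0 in every vertebral library. Of 6 tested notochord genes 3 were higher and 2 lower (3 and 1 without long bone replicate 4, 4 and 0 under median-ratio scaling). The genes called were Krt19, Krt8, T, Cd24a and Foxa2, with Foxa2 among those called lower, and Car3 did not pass the test. The 10 listed genes summed to 459.9 to 532.5 FPKM in vertebral and 344.7 to 862.3 in long bone libraries, with overlapping groups. The levels that follow are of members called higher, and the 2 called lower are not shown by library. T (brachyury) was at 5.23, 5.13, 3.47 and 5.31 FPKM in vertebral libraries and listed at 0 in 3 of 4 long bone libraries. Krt19, a keratin of notochord and nucleus pulposus, was at 18.9, 20.1, 12.7 and 13.8 against 0.347, 0.341, 0 and 0.135 (3.84 ± 0.19, adjusted p = 2.94e-07). Noto was listed at 0 in all 8 libraries and Shh did not pass the filter. The part of muscle and notochord cells in the result was not tested.

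The sites were also compared in EMB+ cells, and the difference between the site differences was tested. Both came from a fit of 16 libraries, whose spread includes that of the EMB- libraries. The EMB- comparison was fitted on its 8 libraries alone, and the genes were filtered on those 8. Counts of calls in EMB+ and in EMB- cells were therefore not made at like power. The titles of the 4 vertebral GFP- EMB+ libraries name another population than their cell type labels, and they were grouped by the latter. Their Emb levels of 44.4 to 55.3 FPKM lay above all EMB- libraries, which reached at most 1.32. In EMB+ cells 687 of the same 10931 genes were higher in vertebral cells (6.28%) and 938 lower (8.58%), with a median difference of 0.01. The difference between the 2 site differences, EMB- minus EMB+, was above 0 in 470 genes (4.30%) and below 0 in 2213 (20.2%), with a median of -0.28 that moved to near 0 under median-ratio scaling, where 771 and 825 genes were called.

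The positional lists were called in part in EMB+ cells. Of 10 axial factors 5 were higher, 1 lower and 4 uncalled in vertebral EMB+ cells, and of 11 limb factors 1 was higher, 7 lower and 3 uncalled. Of the Hox genes 3 of 6 HoxA, 4 of 4 HoxB and 4 of 6 HoxC were higher, 3 HoxA and 1 HoxC were lower, and neither of the 2 HoxD passed the test, nor did 7 of the 8 cofactors of the TALE list. Pax1 was at 57.8, 69.2, 62.4 and 58.1 FPKM in vertebral EMB+ and 1.11, 1.33, 2.098 and 2.03 in long bone EMB+ libraries, and the difference of differences did not pass the test (0.46 ± 0.24, adjusted p = 0.18). For Pitx1, Shox2, Tbx4, Hoxb7 and Hoxa11 it was -0.33, -0.17, -0.19, -0.19 and -0.07, and none of these passed (adjusted p from 0.47 to 0.91). Other members did. The difference of differences was above 0 in 3 of 10 axial factors, Foxf2, Pax9 and Nkx3-2, and below 0 in 3, Meox2 (-1.04), Uncx (-1.74) and Foxc1 (-0.86), against 4 above and 1 below under median-ratio scaling. Of 11 limb factors Irx3 was above 0 (1.38) and Irx5, Prrx1 and Prrx2 below (-1.81, -1.57 and -2.06), with the same counts under median-ratio scaling. Of 18 Hox genes 2 were above 0, 3 under median-ratio scaling, and none below. Foxf2 had a larger difference in EMB- than in EMB+ cells (2.93 ± 0.19, adjusted p = 1.86e-08), and Matn1 a more negative one (-2.37 ± 0.29, adjusted p = 1.63e-05). Foxa2, a notochord factor, was called lower in vertebral EMB- cells only weakly (adjusted p = 0.048, a call that ended under most alternatives) and higher in vertebral EMB+ cells (2.16, adjusted p = 3.87e-06).

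Replication and mitosis genes were lower in vertebral cells without embigin, and some were higher in those with it. Of 35 genes 7 were higher in vertebral EMB+ cells and none lower, against 29 lower in EMB-, and the difference of differences was below 0 for 33 and above 0 for none (median -1.77), beside 20.2% below and 4.30% above of all genes tested. For the red cell list 21 of 31 were below 0, for the hypertrophic list 9 of 10, and for the bone-forming list 9 of 18, each with none above 0. Red cell RNA was low in EMB+ cells at both sites, where hemoglobin genes held 0.026% to 0.12% of the summed FPKM. The count of the red cell list therefore largely restates its EMB- site difference (median -1.47 for the difference of differences, -1.53 in EMB- cells). Under median-ratio scaling 28 replication and mitosis, 8 red cell, 8 hypertrophic and 6 bone-forming genes were below 0, beside 7.55% of all genes. Ihh was higher in vertebral EMB+ cells (2.51, adjusted p = 1.36e-07), and its difference of differences was -2.27 (adjusted p = 3.3e-05). Of 20 glycolysis and hypoxia genes 7 were above 0 and none below (14 and 0 under median-ratio scaling, beside 7.05% above of all genes), among them Car9 (3.72, adjusted p = 4.04e-07), which was lower in vertebral EMB+ cells. Eln was above 0 too (3.43, adjusted p = 2.06e-06).

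The 5 largest positive differences of differences were in Msmp, Padi2, Chst5, Glis1 and Sbsn. Msmp, a small secreted protein that overlaps Rgp1 on the genome, was at 29.1, 51.5, 56.9 and 30.5 FPKM in vertebral EMB- and 2.35, 1.06, 1.69 and 4.41 in long bone EMB- libraries. In EMB+ cells it was at 4.995, 10.03, 9.25 and 7.39 FPKM in vertebral and 433, 1076, 1176 and 1041 in long bone libraries. The order of the sites was thus opposite in the 2 populations, with a site difference of 3.70 in EMB- and -6.65 in EMB+ cells (10.35 ± 0.46, adjusted p = 1.99e-10). Glis1, a zinc finger factor, was at 31.8, 32.7, 33.3 and 32.7 FPKM in vertebral EMB- libraries and averaged 1.59, 1.18 and 1.27 FPKM in long bone EMB-, vertebral EMB+ and long bone EMB+ cells. Padi2, Chst5 and Sbsn averaged between 1.80 and 4.42 FPKM in vertebral EMB+ cells and did not pass the site test in EMB+ cells (0.37, 0.11 and 0.24).

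The 5 most negative were in Fgl2, Myog, Wnt11, F13a1 and Moxd1. Wnt11, a Wnt ligand, was at 4.84, 4.67, 5.66 and 2.59 FPKM in vertebral EMB- and 15.6, 10.4, 24.2 and 33.4 in long bone EMB- libraries, and at 161.01, 156, 147 and 129 in vertebral EMB+ and 41.96, 32.9, 44.99 and 36.02 in long bone EMB+ libraries. It was therefore lower in vertebral cells without embigin and higher in those with it (-3.83 ± 0.36, adjusted p = 9.55e-07). F13a1, a subunit of coagulation factor XIII, and Moxd1, a monooxygenase, had lower levels in vertebral EMB- cells (-3.23 and -3.40), while their site differences in EMB+ cells did not pass the test (0.50 and 0.31).

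**Figure D4:**
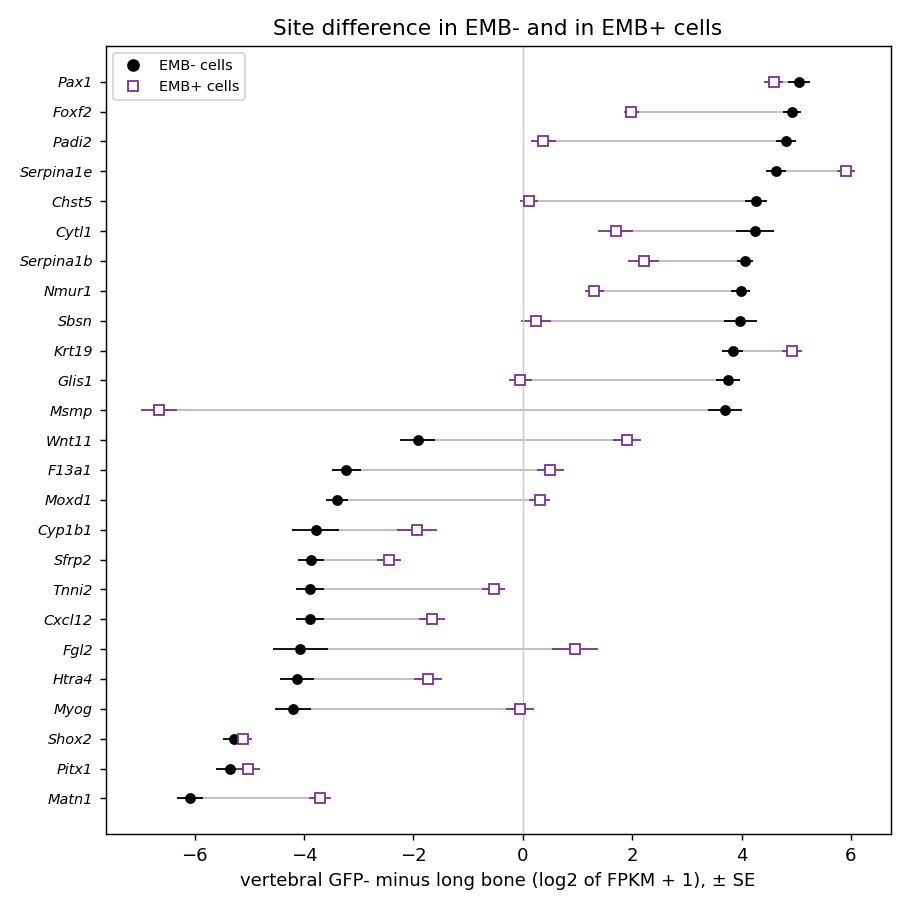
Site difference (vertebral GFP- minus long bone, log2 of FPKM + 1, with SE) in EMB- cells (filled circles) and EMB+ cells (open squares) for the 25 genes named by size of the site difference or of the difference of differences. Pax1, Pitx1 and Shox2 lie close together in both populations, and Msmp lies at 3.70 in EMB- and -6.65 in EMB+ cells.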

How the data were processed

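RNA of sorted cells was made into SMART-Seq v4 and Nextera XT libraries, which do not keep strand, per the labels' protocols. The authors deposited 1 table of FPKM values of protein-coding genes; bcl2fastq 2.19, STAR 2.5.2, Cufflinks 2.1.1 and GRCm38 are named in the submitters' processing notes. FPKM scales with library composition and carries no read depth, so precision rests on the 4 libraries per group. Of 22053 entries, 83 with a repeated identifier, 102 with a repeated symbol and 3 with a failed estimate were left out, which kept 21865 genes. Levels were tested as log2(FPKM + 1), which understates fold changes of low genes, with limma 3.58.1 in R 4.3.3 (moderated with trend and robust estimation, two-sided, Benjamini-Hochberg adjustment over all genes tested, threshold 0.05), after a test on simulated data. Every adjusted p in the text comes from these limma fits. The 2 EMB- groups were fitted alone, and the EMB+ site difference and the difference of differences on 16 libraries. The hemoglobin share was compared by an exact permutation test.

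Groups follow the labels. Replicate numbers were not used as pairs, except in the alternative with a replicate block. Genes were named by a fixed rule: the 10 largest changes per direction with separate groups and at least 5 FPKM in the higher group, leaving out predicted and red cell genes; the sort genes; positional factors; up to 5 called members of each list with the smallest adjusted p and up to 3 uncalled with the highest FPKM; and the 5 largest differences of differences per direction. Separation of groups was required for the largest changes and elsewhere only describes levels. Its share over all tested genes is not given here. Runx2, Kel and Mki67 were named for their promoters. Ppa1, Smpd3 and the members given as below the filter (among them Sost, Fgf23, Noto, Shh, Cdh5, Adgre1, Ckm, Neb and Myh3) were named after their values were seen. The members and gene lists were chosen with earlier results of these data known. Alternatives varied the pseudocount, filter, scaling, fit, weights, replicate block and libraries. Genes that overlap another gene on the genome cannot be told from it without strand, which holds for 13 of the genes shown by library: Hoxc8, Shox2, Matn4, Runx2, Bmp4, Bmp6, Ogn, Dusp1, Pfkp, Alas2, Ube2c, Msmp and Emb.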

Additional observations from a re-analysis of the deposited data

Results flagged for a closer look

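In 10 of 146 groups of 4 libraries examined, 1 library lay far from the other 3, and chance gives about 1 in 20 such groups. That rate does not hold where 3 libraries were listed at 0, since any value in the remaining library is then flagged. This was so for Hoxb6, Serpina1e and T in long bone and for Myog in vertebral libraries. Long bone replicate 4 was the distant one for Cd200 (562.7 FPKM) and Sbsn (8.078 FPKM). Long bone replicate 1 was distant for Mepe (126.4 FPKM) and Hoxb6 (0.05603 FPKM, the others listed at 0). Long bone replicate 3 was distant for Serpina1e (0.1642 FPKM) and T (0.01894 FPKM), where the others were listed at 0. Vertebral replicate 2 was distant for Gas1 (1209 FPKM), Tbx4 (0.3033 FPKM) and Myog (0.08577 FPKM), and vertebral replicate 3 for T (3.47 FPKM, the lowest of its group).

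The site difference in EMB- cells differed from that in EMB+ cells, by the interaction term of limma, in the 10 genes named for it. The log2 difference of differences was 10.348 for Msmp, 4.433 for Padi2, 4.153 for Chst5, 3.803 for Glis1 and 3.737 for Sbsn. It was -5.019 for Fgl2, -4.146 for Myog, -3.83 for Wnt11, -3.733 for F13a1 and -3.708 for Moxd1. All 10 were called again when any single library of the 16 was left out.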

How the results depend on the processing

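With all 8 libraries 3598 genes were called, 631 higher and 2967 lower in vertebral cells. Quantile normalization gave 1347 higher and 1335 lower, and median-ratio scaling 2347 in all, 1095 higher and 1252 lower. The fit of all 6 groups gave 897 higher and 4490 lower, and library weights 6419 in all, 1141 higher and 5278 lower. The weights of long bone replicates 1 to 4 were 6.23, 0.615, 0.632 and 0.122. The weighted long bone mean thus rested mostly on replicate 1, and nothing is read from the larger count. Leaving out 1 library at a time gave 2648 to 5034 calls, 486 to 832 higher and 2135 to 4202 lower, the highest without long bone replicate 4. Added after seeing the data, median-ratio scaling without long bone replicate 4 gave 1567 higher and 2203 lower, and quantile normalization without it 1924 higher and 1912 lower. The difference of differences had 2683 calls, 470 above 0 and 2213 below. Quantile normalization gave 926 and 875, and median-ratio scaling 1596 in all, 771 and 825; leaving out 1 library gave 2183 to 3781, 387 to 607 and 1782 to 3174. The hemoglobin difference of -4.55 percentage points ranged from -5.306 to -3.887 without 1 library, and p was 0.057 without 1 vertebral library and 0.029 without 1 long bone library. Id1, uncalled with 8 libraries, was above 0 under library weights (0.33) and under median-ratio scaling without long bone replicate 4 (0.602), and the cause was not tested. Col2a1 came to -0.0 under quantile normalization without long bone replicate 4. That scaling sets genes of equal rank to equal values, so it cannot show a difference in a gene that ranks alike in the libraries. With the replicate block 626 genes were higher and 3022 lower; deviations of same-numbered libraries correlated at 0.12, 0.19, -0.32 and 0.26, and not every library correlated best with its own number. No paired analysis was possible because long bone EMB+ titles share 1 number, for the difference of differences. The read depth is unknown, which limits what can be said of genes near 0 FPKM.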
